A study of Mus musculus with 6 samples.

Results

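The genes described here encode chromatin modifiers and remodelers. They were chosen by symbol alone: every gene whose symbol is Kdm, Kmt, Hdac, Chd, Setd, Ezh, Tet, Dnmt, Arid, Brd or Ncoa directly followed by a digit, every gene whose symbol starts with Smarc or Ncor, and Ep300, Crebbp, Suz12 and Eed, without Kdm5c, Kdm5d and Kdm6a. The rule took 104 of the 17866 genes in the table, and no measured value entered it. It was, however, chosen with earlier results of these data known. RNA-seq was performed on separated corneal epithelium of C57BL/6 mice at 6 months of age, in 3 libraries labelled wild type (WT) and 3 labelled Rela-/- (KO). Rela encodes a subunit of the transcription factor NF-κB. According to the study's methods the KO mice were Krt14-Cre; Rela f/f, so Rela was deleted in cells that express keratin K14 and their descendants and not in other cells of the tissue. The labels give no Cre or floxed allele for the WT mice.

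Chromatin modifiers add or remove chemical groups on DNA and on the histones around which it is wound, and remodelers use ATP to slide or evict nucleosomes. Histone acetylation and certain methyl marks accompany active genes, whereas deacetylation, Polycomb marks and DNA methylation accompany silent ones. In stratified epithelia such as the cornea and the skin, enzymes of these kinds are known to hold differentiation genes silent in progenitor cells and to open them as the cells mature.

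Each library held between 20158404 and 20880347 estimated counts. Rela itself, the check of the labels, was counted 1871, 1844 and 1855 times in WT against 318, 223 and 313 times in KO, so the labelled genotypes matched. Levels below are in CPM, counts per 1000000 counts of a library after edgeR's scaling of library sizes. A level with ± is the mean and SD of 3 libraries, and a log2 fold change with ± is the estimate and its standard error (SE). Expression of the tissue's markers also differed. All 6 corneal epithelium markers tested were lower in KO, and their summed level fell from 93034 to 96193 CPM in WT to 21510 to 24329 CPM in KO. All 6 epidermal markers were higher, with sums of 20.5 to 26.2 CPM in WT and 12296 to 25244 CPM in KO. The 4 stromal markers tested were higher, but their sums stayed between 13.6 and 23.3 CPM in KO against 0.687 to 2.74 CPM in WT. Of 5 immune markers tested 3 were higher and 1 lower, with sums of 271 to 346 CPM in WT and 260 to 331 CPM in KO. Most of each sum was Itgam, the marker that fell, with a mean of 266 CPM in WT and 175 CPM in KO. The 3 that rose were Ptprc (mean 0.402 to 5.27 CPM), Cd74 (7.99 to 64.3 CPM) and Lyz2 (0.0626 to 9.39 CPM), so the sums hide their rise. The 1 vessel marker tested of 3 found was higher, with sums of 0.0458 to 0.237 CPM in WT and 0.810 to 0.897 CPM in KO. Of 7 cell cycle genes 4 were higher and none lower, with sums of 335 to 541 CPM in WT and 628 to 762 CPM in KO. No gene of these lists was at 0 in all libraries. The part of these marker changes in the results below was not tested. In bulk RNA, fewer cells of a type and less RNA per cell cannot be told apart.

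Of the 104 chromatin genes, 98 had enough counts to be tested, and 52 of these differed between genotypes, 12 higher and 40 lower in KO. The test was edgeR's quasi-likelihood test at an adjusted p of 0.05, with p-values adjusted over all 13305 genes tested. Over all genes tested 62.0% were called, 31.8% higher and 30.2% lower. The chromatin genes were therefore called less often than the background when both directions are counted (53.1%), their share of lower calls was larger (40.8%), and their share of higher calls was smaller (12.2%). Their median log2 fold change was -0.24, against 0.01 for all genes tested. Most changes were small, since 45 of the 52 stayed under 2-fold. At the study's own threshold, an adjusted p of 0.001 or less and a change of at least 2-fold, only Arid5a was higher (background 11.6%) and only Hdac7, Hdac11, Ncoa4 and Chd3 were lower (background 8.24%). The levels of the 2 genotypes did not overlap for 60 of the 98 genes (61.2%), against 68.6% of all genes tested.

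The balance of higher and lower calls changed when gene length was corrected for. The chromatin genes are long: their median effective length, the number of positions from which a read could start, was 5323 bases, against 2842 bases for all genes tested. Long genes as a whole were lower in KO, with a Spearman correlation across genes between length and log2 fold change of -0.21 over all genes tested and -0.18 over the chromatin genes (genes are not independent replicates). When counts were corrected for length in each library, 23 chromatin genes were higher and 23 lower in KO (background 31.3% and 29.5%), and the median log2 fold change moved to -0.0308. All 23 lower genes of the corrected fit were among the 40, and 11 of the 12 higher genes passed in both fits. Tested genes were also divided into 4 equally large length classes. The longest held 61 of the 98 chromatin genes, of which 5 were higher and 27 lower (8.20% and 44.3%). Of all genes in that class 23.4% were higher and 40.6% lower. In the next shorter class 2 of 17 were higher and 6 lower (11.8% and 35.3%), against 26.7% and 34.5% of all genes. In the class below that 3 of 16 were higher and 7 lower (18.8% and 43.8%), against 31.3% and 29.8%. The shortest class held 4, with 2 higher and 0 lower. The share of lower calls among the chromatin genes thus did not rise steadily with length. Whether the length trend is technical or biological was not tested. With total counts as the only scaling, 9 chromatin genes were higher and 50 lower (background 27.9% and 34.8%), and the median of all genes tested was at -0.0885.

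**Figure D1:**
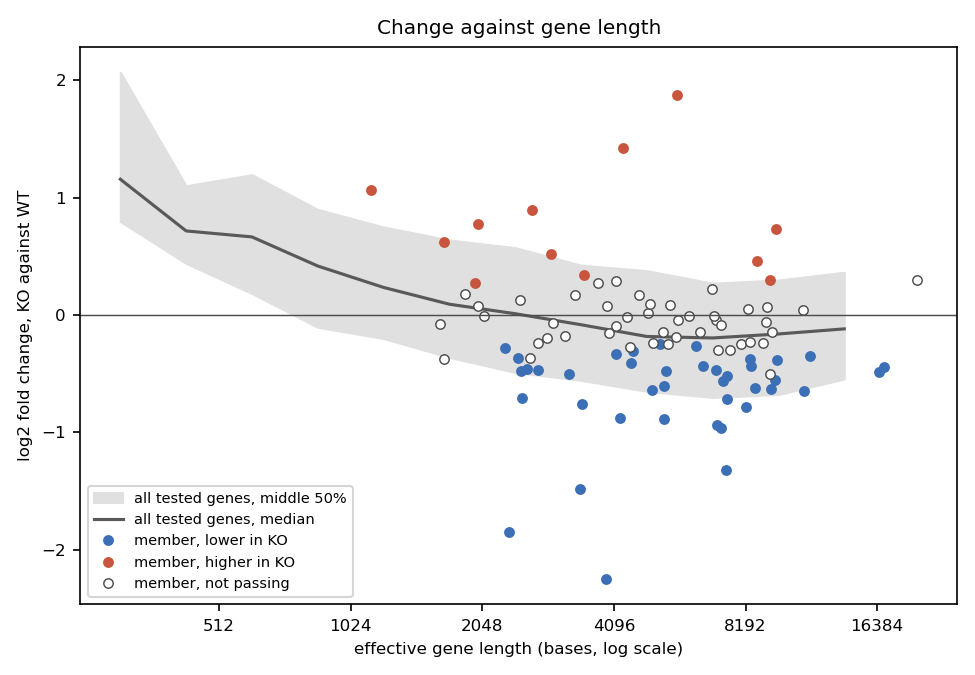
Log2 fold change of KO against WT (y axis) against effective gene length in bases on a log scale (x axis) for the 98 tested chromatin genes, red for higher, blue for lower and open for not passing in the uncorrected fit. The grey line and band give the median and the middle 50% of all genes tested in bins of length. The line falls below 0 where most chromatin genes lie, and Hdac7, Hdac11, Ncoa4 and Chd3 lie far below the band.

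As a share of all counts in a library, the 104 genes took 0.909%, 0.840% and 0.823% in WT and 0.659%, 0.606% and 0.615% in KO. These shares use counts without edgeR's scaling or the length correction, and genes with many counts weigh most in them. The means were 0.857% ± 0.0456 and 0.627% ± 0.0286 (SD, n = 3 each), and the groups did not overlap. By an exact permutation test (two-sided) p was 0.1, and 3 against 3 libraries allow no smaller value. The 3 KO libraries were not equal. Relative to the WT mean, the median log2 level of the chromatin genes was -0.13 in KO 1, -0.29 in KO 2 and -0.24 in KO 3. KO 1 also had the highest sum of epidermal markers, 25244 CPM against 12296 CPM in KO 2 and 15573 CPM in KO 3. Without KO 1 the median log2 fold change was -0.32, and 11 genes were higher and 44 lower. The share of all genes called in that fit was not computed.

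**Figure D2:**
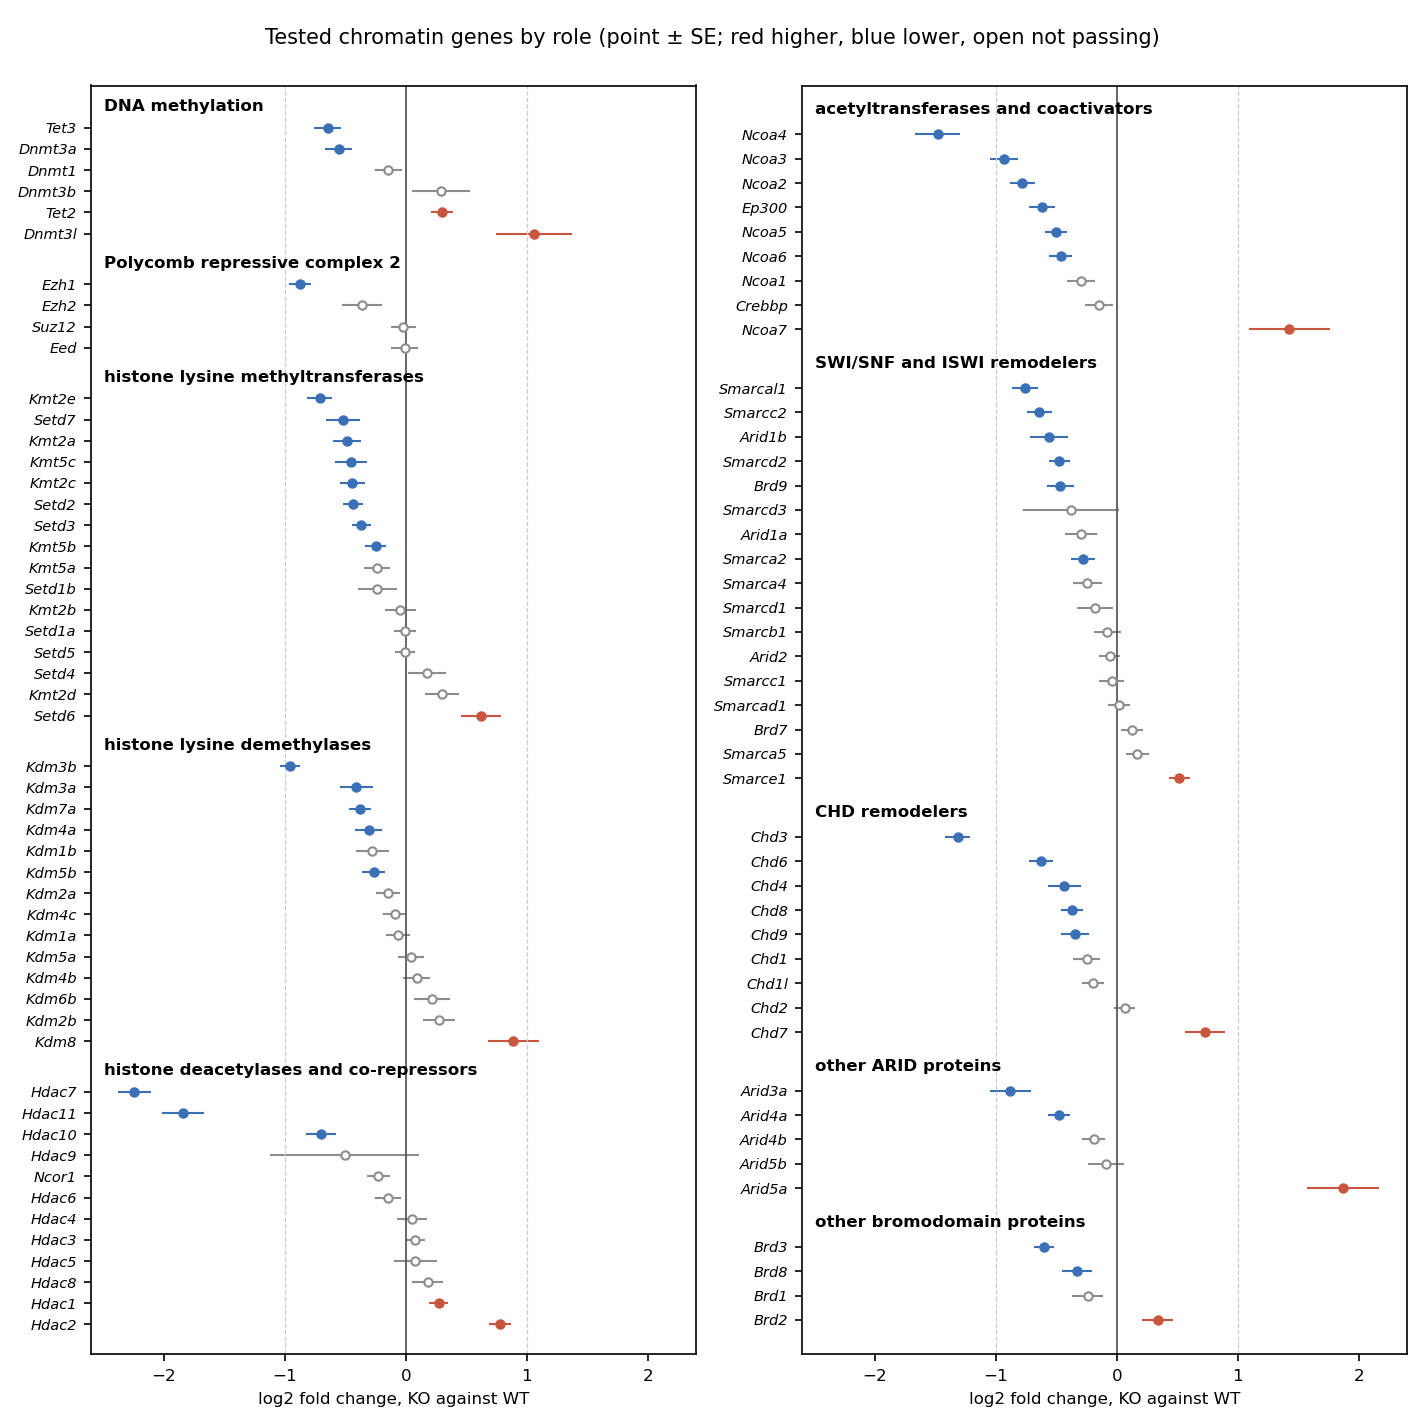
Log2 fold change of KO against WT (x axis, points, with the standard error as bars) of 96 of the 98 tested chromatin genes, grouped by role. Red marks higher, blue lower and open grey not passing at an adjusted p of 0.05, and the dashed lines mark a 2-fold change. The largest changes are those of Hdac7, Hdac11, Ncoa4 and Chd3 to the left and Arid5a and Ncoa7 to the right.

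The histone deacetylase family, named for removing acetyl groups from histones, held the largest falls and also genes that rose. Hdac7 (chr15:97792664-97844502, GRCm38), a class IIa enzyme known as a partner of MEF2 transcription factors, had 345, 358 and 352 CPM in WT and 90.1, 64.9 and 67.3 CPM in KO. No KO library came near the WT range. It fell by 2.25 ± 0.14 on the log2 scale (SE), or 4.74-fold (edgeR, adjusted p = 5.05e-06). Hdac11 (chr6:91156670-91174692), the only class IV deacetylase, had 15.02, 13.9 and 12.3 CPM in WT and 4.61, 3.66 and 3.19 CPM in KO, a fall of 3.59-fold (edgeR, log2 -1.84 ± 0.17, adjusted p = 4.3e-05). Hdac10, known for deacetylating polyamines, was the remaining one to fall (log2 -0.70). Of the class I enzymes Hdac1 and Hdac2 rose. Hdac2, a subunit of the NuRD and Sin3 co-repressor complexes, had 43.2, 44.6 and 45.6 CPM in WT and 68.6, 81.5 and 78.8 CPM in KO, with every KO library above every WT library, and rose 1.71-fold (edgeR, log2 0.78 ± 0.09, adjusted p = 0.000172). Its close relative Hdac1 was higher by 1.21-fold (edgeR, adjusted p = 0.0184). That call was lost without WT 1, WT 3, KO 2 or KO 3 (edgeR, adjusted p between 0.0517 and 0.0654) and with total counts as the only scaling. Hdac3, the enzyme of the NCoR complexes, had 57.9 ± 2.25 CPM in WT and 61.0 ± 1.33 CPM in KO and did not pass (edgeR, adjusted p = 0.432).

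The co-repressor Ncor1, which carries Hdac3 to nuclear receptors, had 208 ± 14.8 CPM in WT and 178 ± 8.85 CPM in KO and did not pass (edgeR, adjusted p = 0.0638). Of the 13 genes of this group, all tested, 3 were higher, 3 lower and 7 did not pass (background 31.8% higher, 30.2% lower). The length correction gave 4 higher and 3 lower (background 31.3% and 29.5%).

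Compared per length, as FPKM (reads per kilobase of effective length and 1000000 reads), Hdac7 was the most abundant deacetylase in WT and no longer so in KO. Its level was 92.3 ± 1.85 FPKM in WT, above Hdac1 (47.6 ± 2.49), Hdac3 (29.8 ± 1.19) and Hdac2 (23.0 ± 0.182). The order in KO was Hdac1 (53.6 ± 2.69 FPKM), Hdac2 (36.8 ± 3.88), Hdac3 (29.3 ± 0.297) and Hdac7 (17.9 ± 3.12), with no overlap between neighbours in either order. Hdac9 was the lowest in both groups, at 0.110 ± 0.0721 and 0.0767 ± 0.0351 FPKM, and its groups overlapped.

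**Figure D3:**
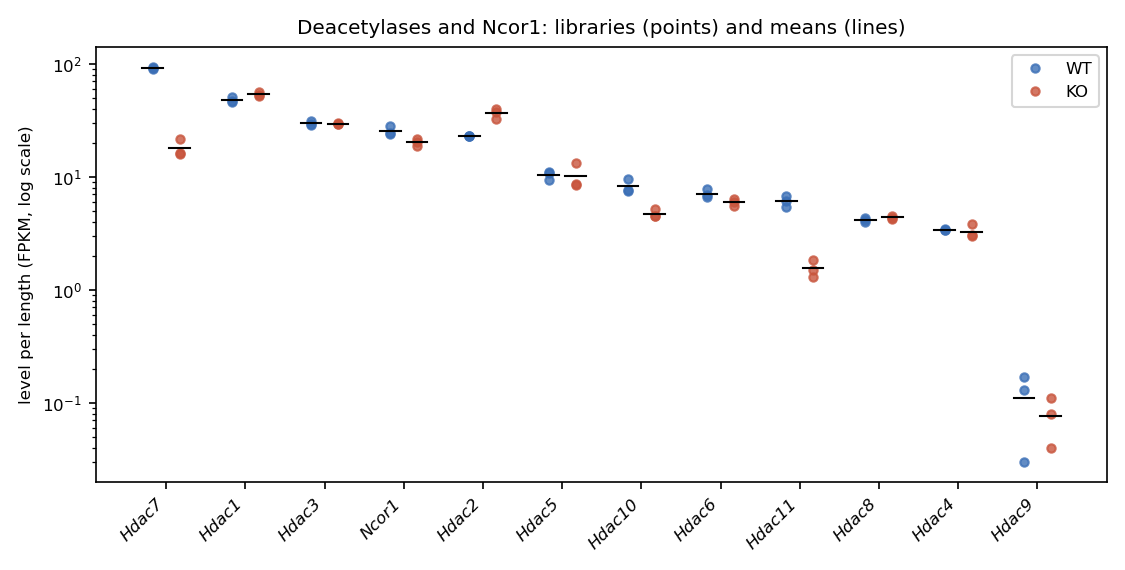
Level per length in FPKM on a log scale (y axis) of the 11 histone deacetylases and the co-repressor Ncor1 (x axis, ordered by WT mean) in each of the 3 WT (blue) and 3 KO (red) libraries, with group means as black lines. Hdac7 falls from 92.3 to 17.9 FPKM and Hdac11 from 6.07 to 1.55 FPKM, while Hdac2 rises from 23.0 to 36.8 FPKM.

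The acetyltransferases Ep300 and Crebbp, which work against the deacetylases, were grouped with the nuclear receptor coactivators. Of these 9 genes, all tested, 6 were lower, 1 higher and 2 did not pass, against 30.2% lower and 31.8% higher over all genes tested. After the length correction 5 stayed lower (background 29.5%). Ncoa4 (chr14:32159887-32179855) had 415, 339 and 342 CPM in WT and 98.5, 128 and 166 CPM in KO, so the highest KO library lay well under the lowest WT library. It fell 2.80-fold (edgeR, log2 -1.48 ± 0.19, adjusted p = 0.00021). Despite its name, Ncoa4 is best known as the receptor that brings ferritin to lysosomes for iron release. Among the p160 coactivators, which bridge hormone receptors to acetyltransferases, Ncoa3 had 158, 135 and 141 CPM in WT and 86.6, 68.7 and 71.8 CPM in KO (edgeR, log2 -0.93 ± 0.11, adjusted p = 0.00018). Ncoa2 also fell (log2 -0.78), whereas Ncoa1 was at 48.4 ± 1.41 CPM in WT and 39.4 ± 5.98 CPM in KO and did not pass (edgeR, adjusted p = 0.0538). Ep300, an acetyltransferase that modifies histones and also RelA, had 181, 166 and 153 CPM in WT and 115, 96.0 and 115 CPM in KO, a fall of 1.54-fold with no overlap (edgeR, adjusted p = 0.0012). Its paralog Crebbp had 55.7 ± 3.36 and 50.3 ± 7.19 CPM (edgeR, adjusted p = 0.302), and without KO 1 it was lower (edgeR, log2 -0.27, adjusted p = 0.0358). The gene that rose, Ncoa7, is associated with the response to oxidative stress and had low levels, 1.24, 1.30 and 0.568 CPM in WT and 3.39, 2.36 and 2.64 CPM in KO (edgeR, log2 1.43 ± 0.34, adjusted p = 0.00594).

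**Figure D4:**
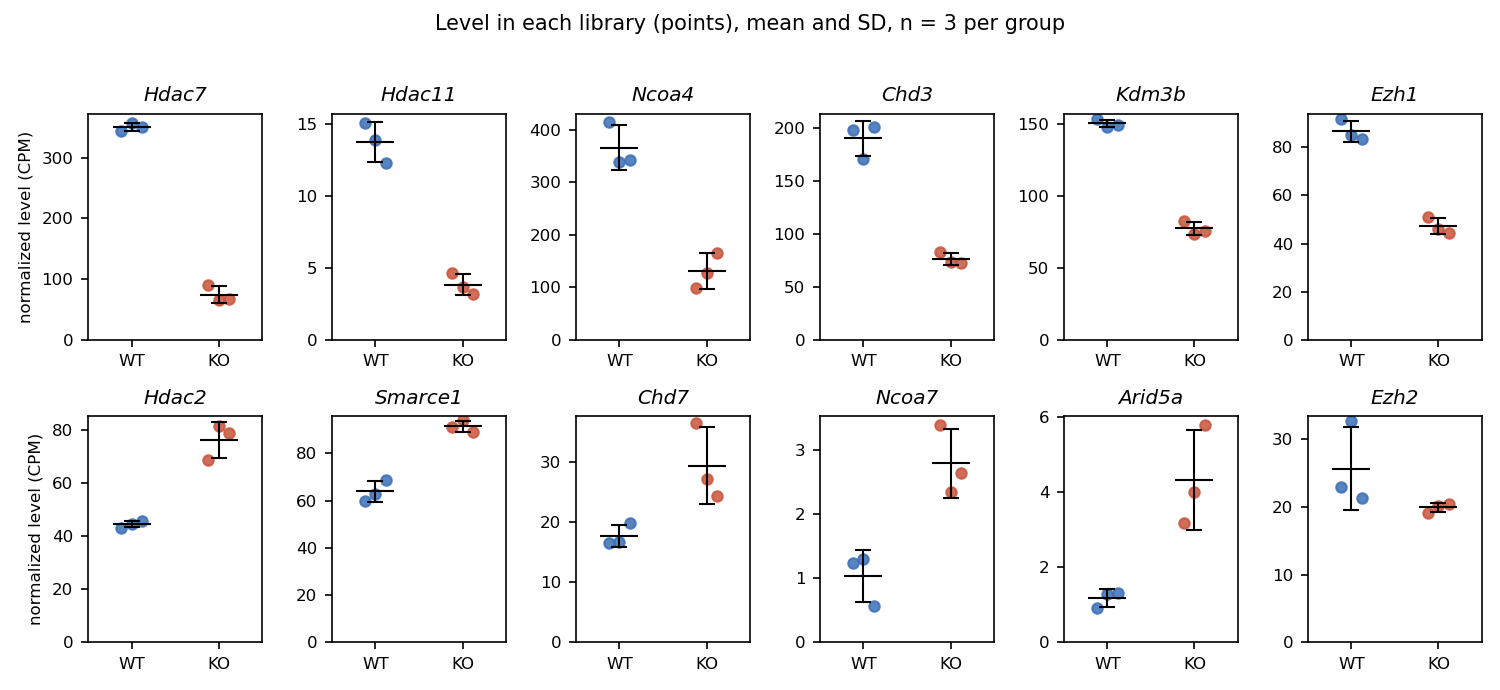
Normalized level in CPM (y axis, from 0, scaled for each gene) of 12 chromatin genes in each WT (blue) and KO (red) library, with the mean and SD of 3 libraries in black. In the top row all KO libraries lie under all WT libraries; in the bottom row 5 genes have all KO libraries above WT, and Ezh2 has WT 2 above the rest.

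DNA methylation genes split. Of 7 genes 6 were tested, with 2 higher and 2 lower (background 31.8% and 30.2%). After the length correction 1 was higher and 1 lower (background 31.3% and 29.5%). Dnmt3a, which sets new methyl marks, had 21.03, 24.3 and 20.7 CPM in WT and 16.1, 14.3 and 14.6 CPM in KO and was lower (edgeR, log2 -0.55 ± 0.11, adjusted p = 0.0028), but did not pass with the length correction (edgeR, adjusted p = 0.0849). Its catalytically inactive partner Dnmt3l rose from a very low level, with 11, 12 and 13 counts per WT library against 23, 29 and 18 per KO library (edgeR, log2 1.06 ± 0.31, adjusted p = 0.0169). Without WT 1, WT 2 or KO 2 this call was lost (edgeR, adjusted p between 0.0504 and 0.0692), and so it was with the length correction (edgeR, adjusted p = 0.0763). The TET enzymes oxidise methylated cytosine as a step to its removal, and they moved apart. Tet3 fell from 172, 167 and 179 CPM to 128, 99.7 and 103 CPM (edgeR, log2 -0.65 ± 0.11, adjusted p = 0.0011), whereas Tet2 rose from 61.1, 56.3 and 66.5 CPM to 77.3, 74.7 and 74.0 CPM (edgeR, log2 0.30 ± 0.09, adjusted p = 0.0191). The Tet2 call was lost without WT 1 or WT 2 (edgeR, adjusted p = 0.0574 and 0.0773) and with total counts as the only scaling. Dnmt1, which copies methylation at replication, had 118, 132 and 101 CPM in WT and 101, 106 and 112 CPM in KO, with overlapping groups (edgeR, adjusted p = 0.287).

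Polycomb repressive complex 2 marks histones at silent developmental genes, and its catalytic subunit is either Ezh1 or Ezh2. Ezh1, the form known from non-dividing cells, had 91.7, 84.99 and 83.4 CPM in WT and 51.1, 46.2 and 44.5 CPM in KO, and every KO library lay under every WT library. It fell 1.83-fold (edgeR, log2 -0.87 ± 0.09, adjusted p = 7.58e-05). Ezh2, the form known from dividing cells, had 22.9, 32.7 and 21.3 CPM in WT and 19.1, 20.2 and 20.4 CPM in KO and did not pass (edgeR, log2 -0.36 ± 0.16, adjusted p = 0.0833). WT 2 stood apart in this gene, and the log2 fold change was -0.14 without it (edgeR, adjusted p = 0.313) and -0.47 without WT 3 (edgeR, adjusted p = 0.0406). The cell cycle genes were also highest among the WT libraries in WT 2, with a sum of 541 CPM against 355 CPM in WT 1 and 335 CPM in WT 3. Their part in the Ezh2 value was not tested. The scaffold subunit Suz12 had 39.8 ± 3.23 CPM in WT and 39.2 ± 3.21 CPM in KO, and the histone-binding subunit Eed had 26.5 ± 1.53 and 26.3 ± 2.86 CPM. Neither passed (edgeR, adjusted p = 0.883 and 0.944).

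Histone lysine methyltransferases comprised 16 genes, all tested, of which 1 was higher, 8 lower and 7 did not pass (background 31.8% higher, 30.2% lower). The length correction changed this balance to 4 higher and 3 lower (background 31.3% and 29.5%). Kmt2e, an MLL-family protein known more for binding methylated histones than for methylating them, fell most, from 179, 171 and 173 CPM to 118, 94.2 and 107 CPM (edgeR, log2 -0.71 ± 0.10, adjusted p = 0.000379). Setd7, which methylates histones and other proteins, had 233, 164 and 195 CPM in WT and 154, 134 and 126 CPM in KO (edgeR, log2 -0.52 ± 0.14, adjusted p = 0.0122). WT 3 and WT 1 lay well above KO, whereas the gap between WT 2 and KO 1 was narrow. Kmt2a, an enzyme of active promoters, and Setd2, which marks transcribed gene bodies, were also lower (log2 -0.49 and -0.44). With the length correction Setd7, Kmt2a and Setd2 did not pass (edgeR, adjusted p = 0.104, 0.0677 and 0.125). Setd6, known for methylating the RelA protein, was the gene that rose, from 8.61, 8.002 and 10.1 CPM to 11.95, 16.8 and 12.4 CPM (edgeR, log2 0.62 ± 0.17, adjusted p = 0.0115). Kmt2d, an enhancer methyltransferase with the largest effective length of the 98 (20225 bases), had 74.6, 69.1 and 82.7 CPM in WT and 112, 77.9 and 88.9 CPM in KO. The groups overlapped and the gene did not pass (edgeR, adjusted p = 0.0936). It did pass as higher with the length correction (edgeR, log2 0.58, adjusted p = 0.0064) and without KO 2 (edgeR, log2 0.41, adjusted p = 0.03).

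Among the 15 histone lysine demethylases, 14 were tested, 1 was higher, 5 lower and 8 did not pass (background 31.8% higher, 30.2% lower). After the length correction 5 were higher and 1 lower (background 31.3% and 29.5%). The gene lower in both fits was Kdm3b, a demethylase of a repressive lysine mark, with 153, 148 and 149 CPM in WT and 82.7, 73.4 and 75.8 CPM in KO. The libraries of each group lay close together and far from the other group, and the fall was 1.94-fold (edgeR, log2 -0.96 ± 0.08, adjusted p = 2.97e-05). Kdm3a, its paralog, had 112, 108 and 102 CPM in WT and 71.5, 72.2 and 99.6 CPM in KO, with KO 3 near the WT range (edgeR, log2 -0.41 ± 0.14, adjusted p = 0.0281). Its call was lost without WT 1, WT 2, KO 1 or KO 2 (edgeR, adjusted p between 0.0597 and 0.0897) and with the length correction (edgeR, adjusted p = 0.197). Kdm8, a JmjC-domain protein, rose from a low level of 1.74, 2.37 and 2.08 CPM to 4.10, 3.71 and 3.69 CPM (edgeR, log2 0.89 ± 0.21, adjusted p = 0.0057). Kdm1a (LSD1), which works with deacetylases in the CoREST complex, had 59.2 ± 0.810 and 56.6 ± 5.82 CPM and did not pass (edgeR, adjusted p = 0.582). Kdm6b removes the Polycomb mark and is known as a gene that inflammatory signals induce. It had 45.8, 40.9 and 43.3 CPM in WT and 56.5, 38.6 and 56.4 CPM in KO. KO 2 lay under all WT libraries, the other KO libraries above them, and the gene did not pass (edgeR, adjusted p = 0.231) except without KO 2 (edgeR, log2 0.38, adjusted p = 0.0109) and with the length correction (edgeR, log2 0.48, adjusted p = 0.0211).

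SWI/SNF and ISWI remodelers numbered 18, of which 17 were tested. Of these, 1 was higher, 6 lower and 10 did not pass (background 31.8% higher, 30.2% lower). The length correction gave 3 higher and 4 lower (background 31.3% and 29.5%). Smarcc2, a core scaffold subunit of SWI/SNF, had 150, 145 and 136 CPM in WT and 103, 82.1 and 91.4 CPM in KO, all KO libraries lower, and fell 1.56-fold (edgeR, log2 -0.64 ± 0.10, adjusted p = 0.000825). Smarcal1, an annealing helicase that repairs stalled replication forks and is not a SWI/SNF subunit, fell from 37.7, 32.1 and 32.6 CPM to 19.5, 22.0 and 19.0 CPM (edgeR, log2 -0.76 ± 0.11, adjusted p = 0.000475). Smarce1, a DNA-binding subunit, was the one to rise, from 60.0, 62.9 and 68.7 CPM to 91.2, 93.9 and 89.0 CPM, with no overlap (edgeR, log2 0.52 ± 0.09, adjusted p = 0.000982). The catalytic ATPase Smarca4 (BRG1) had 187 ± 15.7 and 158 ± 21.4 CPM (edgeR, adjusted p = 0.108), the core subunit Smarcb1 had 55.2 ± 2.77 and 52.3 ± 6.71 CPM (edgeR, adjusted p = 0.555), and the targeting subunit Arid1a had 156 ± 3.37 and 127 ± 24.4 CPM (edgeR, adjusted p = 0.0802). In Arid1a the library KO 1, at 154 CPM, was level with WT, and KO 2 and KO 3 were at 107 and 119 CPM. Without KO 1 both Arid1a (edgeR, log2 -0.46, adjusted p = 0.00323) and Smarca4 (edgeR, log2 -0.36, adjusted p = 0.0178) were lower.

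Smarca2 (BRM, chr19:26605088-26778321), the alternative ATPase, gave different sizes on 2 scales. Its counts fell by 0.28 ± 0.10 on the log2 scale (edgeR, adjusted p = 0.0401), a call lost when any library but KO 1 was left out (edgeR, adjusted p between 0.0681 and 0.137). Its mean FPKM went from 27.4 ± 1.87 to 16.95 ± 1.68, a log2 ratio of -0.69. The FPKM values lack edgeR's scaling of library sizes (TMM), without which the log2 fold change of the counts was -0.37, and they are divided by the effective length. The length that the deposited counts and FPKM imply for it was 2637, 2306 and 2296 bases in WT and 3245, 2849 and 2921 bases in KO, with no overlap and a ratio of means of 1.25. RSEM derives this length from the mixture of transcripts it assigns to a gene. Smarca2 was the only one of 91 chromatin genes with a usable value (at least 1 FPKM in each library) whose implied length did not overlap and changed by at least 1.1 times, against 1.53% of all such genes. It was singled out after its values were seen.

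CHD remodelers comprised 10 genes, of which 9 were tested, 5 were lower, 1 higher and 3 did not pass (background 30.2% lower, 31.8% higher). After the length correction 2 were lower and 2 higher (background 29.5% and 31.3%). As a group the CHD genes are the longest of the set, with a median effective length of 8393 bases. Chd3 (chr11:69343036-69395346), an ATPase of the NuRD complex, had 198, 171 and 202 CPM in WT and 83.4, 73.4 and 72.5 CPM in KO. The KO libraries were far under WT, and the fall of 2.49-fold (edgeR, log2 -1.32 ± 0.10, adjusted p = 1.7e-05) remained with the length correction (log2 -1.05). Chd4, the main NuRD ATPase in most cells, had 354, 319 and 321 CPM in WT and 292, 206 and 238 CPM in KO (edgeR, log2 -0.43 ± 0.13, adjusted p = 0.0213). This call was lost without WT 1, KO 2 or KO 3 (edgeR, adjusted p between 0.0578 and 0.0779) and with the length correction (edgeR, adjusted p = 0.237). Chd6 also fell (log2 -0.63). Chd7, whose loss causes CHARGE syndrome, rose from 16.6, 16.7 and 19.8 CPM to 36.6, 27.2 and 24.4 CPM, most in KO 1 (edgeR, log2 0.73 ± 0.16, adjusted p = 0.00466).

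The other ARID and bromodomain genes held the largest rise. Arid5a (chr1:36306032-36329264), known as an RNA-binding protein that stabilises the messages of inflammatory genes, was counted 20, 28 and 28 times in WT against 63, 80 and 116 times in KO. Every KO library had more than any WT library, and the rise was 3.65-fold at a low level (edgeR, log2 1.87 ± 0.30, adjusted p = 0.000735). It stayed past an adjusted p of 0.05 in every leave-one-out fit but met the study's threshold in 1 of those 6, the fit without KO 1. Arid3a, a DNA-binding factor, fell from 20.02, 16.7 and 23.9 CPM to 12.9, 9.58 and 10.4 CPM (edgeR, log2 -0.88 ± 0.17, adjusted p = 0.00207), and Arid4a, a partner of the retinoblastoma protein, fell by 0.48 on the log2 scale. Of the 7 ARID genes outside SWI/SNF 5 were tested, with 1 higher and 2 lower (background 31.8% and 30.2%). The length correction left these counts unchanged (background 31.3% and 29.5%). The BET proteins read acetylated histones. Brd3 fell from 105, 101 and 99.0 CPM to 69.1, 69.3 and 62.6 CPM (edgeR, log2 -0.60 ± 0.08, adjusted p = 0.000365). Brd2 was higher, at 135, 154 and 147 CPM in WT and 218, 159 and 174 CPM in KO, but narrowly so (edgeR, log2 0.34 ± 0.13, adjusted p = 0.0473), and the call was lost without any library but KO 2 (edgeR, adjusted p between 0.0587 and 0.135) and with total counts as the only scaling. Brd8, of the TIP60 acetyltransferase complex, was lower (edgeR, log2 -0.33, adjusted p = 0.0417), a call lost without WT 1, WT 2, KO 1 or KO 3 (edgeR, adjusted p between 0.0782 and 0.155). Of these 5 bromodomain genes 1 was higher and 2 lower, and 2 higher and 1 lower after the length correction, against the same backgrounds.

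The 6 genes not tested were near the limit of detection. Tet1 was counted 6, 6.1 and 3 times in WT against 12, 16.2 and 8 times in KO. Arid3b was counted 8, 12 and 14 times in WT against 3, 3 and 8 times in KO, Chd5 between 2 and 11 counts, Kdm4d at most 5, and Arid3c and Smarca1 at most 1. A count of 0 allows up to 3 counts, or 0.144 to 0.149 CPM before scaling, and this covers counting error only.

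Because several of these proteins replace each other in the same complex, the level ratio of 24 related pairs was taken within each library from FPKM. The ratios of WT and KO did not overlap in 18 of the 24 pairs. Single genes did not overlap in 68.6% of all genes tested and the share for other gene pairs was not computed, so this count says nothing particular to these pairs. Tested pair by pair (exact permutation, two-sided), p was 0.1 at the lowest, the floor of this design, or 0.133 after Benjamini-Hochberg adjustment over the 24 pairs, so none passed. Chd4 to Chd3 went from 1.96 ± 0.159 to 3.59 ± 0.397, and Chd7 to Chd8 from 0.128 ± 0.0196 to 0.275 ± 0.0438. In the opposite direction, Tet3 to Tet2 went from 2.36 ± 0.113 to 1.22 ± 0.144 and Brd3 to Brd2 from 0.459 ± 0.0562 to 0.236 ± 0.0337. The ratio of Ezh2 to Ezh1 was 0.409, 0.620 and 0.412 in WT and 0.598, 0.698 and 0.736 in KO, where WT 2 overlapped KO. Smarca4 to Smarca2 overlapped as well.

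**Figure D5:**
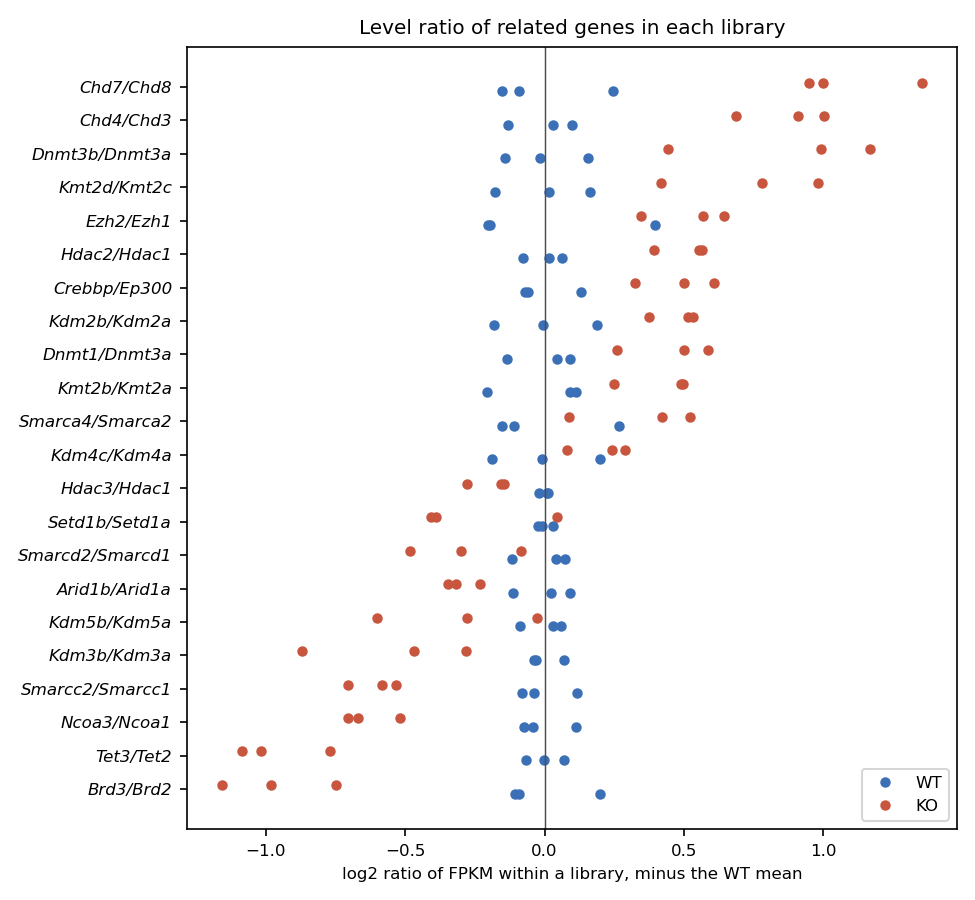
Log2 of the FPKM ratio of 22 of the 24 related gene pairs within each library, minus the WT mean of that pair (x axis), for 3 WT (blue) and 3 KO (red) libraries; pairs are on the y axis in the order of their change. At the top Chd7/Chd8 and Chd4/Chd3 have all KO libraries to the right of WT, at the bottom Brd3/Brd2 and Tet3/Tet2 to the left, and 6 pairs overlap.

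A list of 90 other chromatin genes, such as heterochromatin, Polycomb repressive complex 1, NuRD and COMPASS subunits that the symbol rule does not take, was read the same way. Of 88 found 86 were tested, with 12 higher (14.0%, background 31.8%) and 33 lower (38.4%, background 30.2%) in KO. Their median log2 fold change was -0.16. The longest length class held 30 of them, with 3.33% higher and 40.0% lower, against 23.4% and 40.6% of all genes. The length correction gave 21 higher and 28 lower (background 31.3% and 29.5%). Dpy30 was called higher without it (edgeR, log2 0.43, adjusted p = 0.00547) and lower with it (edgeR, log2 -0.32, adjusted p = 0.0165). Prmt1, the main arginine methyltransferase, rose most (log2 0.72), followed by Suv39h2, a heterochromatin methyltransferase (0.60), and Pcgf6, a Polycomb subunit (0.51). The largest falls were those of Cbx7, a Polycomb reader (log2 -1.61), Bcl7a, a SWI/SNF subunit (-1.35), and Sirt3, a mitochondrial deacetylase (-0.99). These 6 passed at edgeR's adjusted p of 0.05. The Suv39h2 call was lost without WT 1, WT 3, KO 1 or KO 3 (edgeR, adjusted p between 0.0651 and 0.0904), and the number of higher genes was 7 without WT 1 or WT 3 and 6 without KO 3.

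Promoter sequence was examined for the NF-κB motif, since Rela encodes one of the proteins that bind it. The window of 250 bases before to 50 bases after the start site (RefSeq, GRCm38.p6) was at hand for 80 of the 104 genes. On either strand, 11 of the 80 (13.8%) held the motif, against 12.2% of 10572 tested genes and 9.55% of 27025 genes. Of these 11, 5 were lower, none higher, 5 did not pass, among them Ncor1, and 1 was not tested. Of all 98 tested chromatin genes 40.8% were lower and 12.2% higher. The share called among all genes with the motif was not computed, so these counts say nothing particular to the motif. CpG-rich windows were found for 71 of the 80 (88.8%), against 69.8% of tested genes. The windows of 3 genes that fell are shown because they hold the motif (in capitals), at -61 in Ncoa4 (chr14:32165336-32165635, + strand), -45 in Smarcc2 (chr10:128458986-128459285, + strand) and -43 in Chd4 (chr6:125095913-125096212, + strand), counted from the start site to the motif's first base. The Ncoa4 window lies inside the gene span that the deposited table gives. A match describes these letters and does not show binding.
Ncoa4: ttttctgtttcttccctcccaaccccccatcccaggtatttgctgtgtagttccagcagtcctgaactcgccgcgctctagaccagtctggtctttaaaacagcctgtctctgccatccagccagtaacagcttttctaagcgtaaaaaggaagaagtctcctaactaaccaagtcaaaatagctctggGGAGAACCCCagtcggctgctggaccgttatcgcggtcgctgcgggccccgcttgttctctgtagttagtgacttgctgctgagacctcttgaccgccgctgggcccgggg
Smarcc2: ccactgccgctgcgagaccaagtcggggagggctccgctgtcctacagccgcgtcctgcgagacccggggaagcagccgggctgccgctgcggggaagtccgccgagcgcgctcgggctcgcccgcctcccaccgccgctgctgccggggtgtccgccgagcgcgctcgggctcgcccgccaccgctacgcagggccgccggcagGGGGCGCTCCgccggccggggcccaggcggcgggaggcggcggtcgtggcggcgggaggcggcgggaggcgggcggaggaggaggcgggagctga
Chd4: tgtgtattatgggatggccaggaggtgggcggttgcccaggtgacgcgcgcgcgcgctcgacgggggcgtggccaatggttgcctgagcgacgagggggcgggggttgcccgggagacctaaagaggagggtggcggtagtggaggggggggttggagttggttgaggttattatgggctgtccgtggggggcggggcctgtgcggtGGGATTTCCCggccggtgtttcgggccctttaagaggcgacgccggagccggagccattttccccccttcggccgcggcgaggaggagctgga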

How the data were processed

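RNA of separated corneal epithelium from 3 WT and 3 KO samples was sequenced. The methods call the samples independent and do not say how many mice gave each. The submitters' processing notes name Bowtie2 (2.2.5) and RSEM (1.2.12). The labels name an Illumina kit, whereas the methods describe rRNA depletion and a BGI instrument, and which protocol made these libraries was not settled here. Per the labels the genome was mm9, whereas the gene coordinates in the deposited table match GRCm38. The authors made estimated counts per gene with RSEM and deposited them, with FPKM (divided by effective length and library total) and TPM, for each library. RSEM divides reads that fit several genes, and 41 of the 104 genes had counts that were not whole, so close paralogs and overlapping genes share some uncertainty. TPM was used only to check its sum. The authors' own log2 fold changes and p-values for KO against WT are in the same table and were not used. No per-library column (0) was left unmapped.

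After rounding, edgeR 4.0.16 (R 4.3.3) was run with TMM, filterByExpr and genotype as its single term over 13305 genes with Benjamini-Hochberg adjustment. CPM was scaled by TMM factors (1.01 to 1.05 in WT, 0.952 to 0.990 in KO). Labels name separate samples, and p-values measure the spread between these libraries. The biological coefficient of variation was 15.4%. On simulated data for this comparison the test recovered 98% of 4-fold and 79% of 2-fold changes among 200 changed of 13305 genes with 9 false calls. A straight trend of log2 level with log2 length, added to the simulated KO libraries, gave 1787 false calls, and 10 after the correction. The observed trend levelled off in long genes, so the simulation does not show how well the correction works on these data. The correction fits a smooth curve of each library against effective length, and the result enters as an offset. The 19 alternatives comprised RLE factors, DESeq2 1.42.0, scaling by totals, TMM without the 20 highest genes, no low-count filter, a mean count of 50, robust dispersion, limma 3.58.1 on log2(FPKM + 1) and log2(FPKM + 0.1), length and GC corrections, a replicate block without and with the length correction, and each library left out. Ratios and shares used exact permutation tests (scipy 1.17.1).

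Genes named were Rela, those at the study threshold, the 2 largest rises and falls per role, a list of well-known members, and the 3 largest rises and falls of the other chromatin genes. Some named results are not reported here. Members and lists were chosen with earlier results of these data known. The implied-length comparison was added after the data were seen.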

Additional observations from a re-analysis of the deposited data

How the results depend on the processing

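Of the 52 chromatin genes called, 27 were called in the same direction in all 19 alternatives (21 lower, 6 higher) and none changed sign, and 25 of the 46 not passing were called in at least 1. The length correction gave 23 higher and 23 lower chromatin genes, 2 higher at the study threshold, 21 higher other chromatin genes and a median log2 fold change of -0.0308. With total counts only the median was -0.34 and 6 other chromatin genes were higher. With limma on log2(FPKM + 1) and on log2(FPKM + 0.1), 0 chromatin genes were higher at the study threshold and 7 and 6 other chromatin genes were higher. The median was -0.33 with the smaller pseudocount. Leaving out 1 library at a time gave 8 to 13 higher and 30 to 44 lower genes, 0 to 1 higher at the study threshold, 6 to 13 higher other chromatin genes (7 without WT 1, 7 without WT 3 and 6 without KO 3) and a median of -0.32 to -0.18. Among the named genes that did not pass, the log2 fold change turned sign in 7. With the length correction it was 0.0849 for Dnmt1, 0.164 for Suz12, 0.0382 for Kdm1a, 0.0567 for Ncor1 and 0.138 for Crebbp. With total counts and the limma fits on log2(FPKM + 1) and log2(FPKM + 0.1) it was -0.0181, -0.0215 and -0.0221 for Hdac3. With a mean count of at least 50 it was 0.00960 for Suz12 and 0.0187 for Eed. Over the fits without 1 library it lay between -0.0612 and 0.0568 for Suz12 and between -0.0870 and 0.0701 for Eed.

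Same-numbered libraries deviated from their group means with correlations of 0.03, -0.01 and 0.06, within the -0.16 to 0.12 of unlike numbers. The numbers thus gave no sign of pairing, which 3 libraries a group cannot exclude. A replicate block gave 11 higher and 44 lower chromatin genes, and together with the length correction 18 and 24, with 22 higher other chromatin genes and a median of -0.0391. In that last fit the values were 0.0908 for Dnmt1, 0.163 for Suz12, 0.0343 for Kdm1a, 0.0545 for Ncor1 and 0.133 for Crebbp. The cause of these shifts was not tested. Shares of all genes called were computed only for the first fit, the length correction and total counts. The counts from the other fits therefore have no background beside them. At this depth and 3 libraries a group, 98% of 4-fold but 79% of 2-fold changes were recovered on simulated data. Only 200 of 13305 genes changed there, whereas 62.0% of genes were called here, so these shares need not hold for this comparison. The smaller changes that most chromatin genes showed were not simulated.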
